A study of Mus musculus with 6 samples.

Results

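The regions described here are the most accessible distal chromatin elements of cultured mouse small-intestinal epithelium. They were chosen from the consensus peaks of an ATAC-seq data set by 3 criteria. The deposited annotation places the peak in an intron or between genes, the nearest annotated transcription start site (TSS) is at least 10 kb away, and the mean signal over the 6 libraries is 30 CPM or more, with CPM the peak's count scaled to the library's total. Of 156733 peaks, 82845 met the criteria of class and distance, and 1814 of these (2.19%) met the signal criterion as well. Since the mean CPM chose the elements, their high level is a description and not a result. Just inside the threshold lay elements nearest to Gm26669, 2610037D02Rik and Hs6st1 with mean CPM of 30.01, 30.01 and 30.03, and just outside it lay peaks nearest to H2af-ps, Fbp1 and Por with 29.997, 29.993 and 29.991.

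The cells came from small-intestinal organoids of C57BL/6JRj mice, and untreated cultures of 2 ages were compared. The aged group had 3 libraries from donors of 20 to 22 months, and the young group had 3 libraries from donors of 2 to 3 months. All organoids had grown for 3 to 5 weeks. Replicate 1 of each age was at passage 4, replicate 2 at passage 3 and replicate 3 at passage 2, and the 2 libraries of a replicate number carried the same culture code. In the titles this code differs between the replicate numbers, while the descriptions give 1 code to all 6 libraries. The labels do not say whether each library came from its own animals, so the p-values below measure only the spread between these libraries. Total peak counts were 21687816 to 26093521 in the aged libraries and 7278161 to 25901670 in the young libraries, of which young replicate 1 held the fewest. The median element drew 840 to 1024.5 counts per aged library and 302 to 985.5 counts per young library.

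In ATAC-seq, the Tn5 transposase cuts and tags DNA where chromatin is open, so a peak's count measures accessibility and not transcription. Distal open regions include enhancers, which bind transcription factors and act on promoters across long stretches of DNA, as well as insulators and start sites that an annotation lacks. In the intestinal epithelium, enhancers are known to be bound by HNF4, CDX2, GATA4 and AP-1 factors. The nearest gene is used here only as a name for a region and need not be the gene on which the region acts.

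An accessible promoter missing from the deposited annotation would pass the same criteria, so the elements were compared with the RefSeq start sites of GRCm38.p6. The table of starts does not reach 86 of the elements. Of the other 1728 elements, 112 (6.48%) held a RefSeq start inside the peak, against 666 of 77784 other distal peaks (0.856%) and 3393 of 4135 promoter peaks at 30 CPM or more (82.1%). A longer peak has more room for a start, and the elements were longer than other distal peaks. A RefSeq start lay within 1 kb of the peak's centre at 7.70% of these elements and 2.155% of other distal peaks. These 112 starts belonged to 60 protein-coding genes and 52 long non-coding RNA genes. In 37 cases the start was that of the nearest gene itself by its symbol or an older one, with the TSS in the deposited annotation lying elsewhere, and in 75 it carried the symbol of another gene. Among the strongest were starts of Bcar1, an adaptor protein of cell adhesion (109 CPM), Rrbp1, a ribosome-binding protein of the endoplasmic reticulum (81.6 CPM), Gsn, the actin-severing protein gelsolin (77.8 CPM), and Sec16b, a protein of endoplasmic reticulum exit sites (72.0 CPM). The elements with a RefSeq start were longer, with a median of 1119 bp, than the 1616 without one on the same chromosomes, with 755.5 bp.

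The sequences of 3 of these elements are shown as examples that differ in composition or motif matches while all pass as distal. They are not typical of the 112. Sec16b and Edrf1 hold an AP-1 match, found in 9 of the 112 windows, and Sec16b an HNF4 match, found in 2. Each line gives the 250 bases before the RefSeq start in the direction of transcription, and capitals mark matches, on either strand, to the motifs searched.
Rrbp1: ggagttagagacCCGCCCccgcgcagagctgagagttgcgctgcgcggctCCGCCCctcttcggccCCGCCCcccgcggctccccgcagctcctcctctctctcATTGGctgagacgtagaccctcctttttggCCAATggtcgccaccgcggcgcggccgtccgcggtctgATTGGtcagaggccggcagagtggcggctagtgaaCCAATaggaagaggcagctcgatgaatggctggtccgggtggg
Sec16b: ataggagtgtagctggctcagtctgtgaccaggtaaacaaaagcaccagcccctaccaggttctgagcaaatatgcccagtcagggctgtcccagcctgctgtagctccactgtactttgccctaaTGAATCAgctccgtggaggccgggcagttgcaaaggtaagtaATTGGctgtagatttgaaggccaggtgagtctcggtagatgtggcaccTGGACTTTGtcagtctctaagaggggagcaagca
Edrf1: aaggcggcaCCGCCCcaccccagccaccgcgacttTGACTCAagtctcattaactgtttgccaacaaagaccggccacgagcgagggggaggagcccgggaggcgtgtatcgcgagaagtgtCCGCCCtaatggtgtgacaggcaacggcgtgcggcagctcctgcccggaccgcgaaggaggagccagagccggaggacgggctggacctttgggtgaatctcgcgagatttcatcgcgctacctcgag
The Rrbp1 stretch is chr2:144011264-144011513 on the minus strand, the Sec16b stretch is chr1:157525920-157526169 on the plus strand and the Edrf1 stretch is chr7:133637425-133637674 on the plus strand, all in GRCm38.p6. The Rrbp1 sequence is 68% G and C, has 25 CpG pairs, and its 7 capitalised stretches are 3 GC boxes (GGGCGG, bound by SP and KLF factors) and 4 CCAAT boxes (bound by NF-Y). Its deposited annotation is an intron 22.5 kb from the TSS of Banf2. The Sec16b sequence is 52.8% G and C with 3 CpG pairs, and the capitals are an AP-1 match (TGANTCA), one CCAAT box and an HNF4 match (CAAAGTCCA, here on the other strand). The Edrf1 sequence, of a regulator of erythroid genes, is 64.0% G and C with 25 CpG pairs and holds an AP-1 match between 2 GC boxes. A match is a run of letters and not a measured binding site.

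Over the 112 windows of 250 bases, the median G and C content was 57.8%, against 62.8% in the 3393 windows of strong promoter peaks and 52.4% in all 32851 windows of the table. The GC box was found in 43.8% of the elements' windows, 71.8% of the strong promoters' windows and 32.7% of all windows. The ETS motif CCGGAAG was found in 6.25%, 16% and 6.91%, and CCAAT in 39.3%, 46.6% and 33.8%. The AP-1 motif was found in 9 elements (8.04%), against 3.48% of strong promoters' windows and 6.75% of all windows. The HNF4 motif was found in 2 elements (1.79%), against 0.324% and 0.384%. The CDX motif TTTATNG occurred in 10.7% of the elements' windows, 5.16% of the strong promoters' windows and 9.81% of all windows, and the figures for the GATA motif AGATAA were 6.25%, 3.51% and 9.99%. The TATA box TATAAA was in 5.36%, 3.89% and 12.4%. Each motif was counted on its own, and matches to different motifs may share bases. With 112 windows, these shares describe a small fraction of the elements.

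The elements were long peaks. Their median length was 774 bp, against 239 bp for the 81031 other distal peaks and 955 bp for the 4239 promoter peaks at 30 CPM or more. A long peak collects more counts. Signal per length is computed from the mean CPM that chose the elements and is given as a description: the median was 55 CPM per kb in the elements, 5.14 in other distal peaks and 51.1 in the strong promoters. The elements' mean CPM ran from 30.01 to 183, with a median of 39.9, and 24 elements reached 100 CPM. The single consensus set holds 8292 peaks at 30 CPM or more, of which the elements are 21.9%. Taking the same number of distal peaks by CPM per kb instead of by CPM kept 1026 of the elements.

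Slightly more elements lay in introns (919, 50.7%) than between genes (895), close to the 51.4% of other distal peaks in introns. Of the intronic elements, 43.1% were in the first intron of their transcript, against 32.0% of other intronic distal peaks. For 417 of 893 intronic elements with a named host gene, the gene with the nearest TSS was a different gene. The median distance from the nearest TSS was 26.7 kb, and 118 elements (6.50%) lay 100 kb or more away, against 10.6% of other distal peaks. The X chromosome held 9 elements, 0.496% of them, and 1.92% of other distal peaks. The nearest gene was protein-coding for 1072 elements (59.1%), a lincRNA gene for 188 and a processed pseudogene for 148.

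The strongest element lay between genes on chromosome 17 (chr17:84136326-84138233, 1908 bp), 50.7 kb from the TSS of Zfp36l2, a zinc-finger protein that promotes the decay of AU-rich mRNAs. With library sizes scaled by the trimmed mean of M-values (TMM), as in all values per library below, it had 195, 170 and 187 CPM in aged replicates 1 to 3, and 191, 161 and 203 CPM in young replicates 1 to 3. Replicate 2 was the lowest library at both ages and the groups overlapped. The second lay 11.5 kb upstream of Krt18, a keratin of simple epithelia (chr15:102016134-102017282, 1149 bp), with 154, 154 and 164 CPM in aged libraries and 157, 142 and 159 CPM in young libraries. It also holds the RefSeq start of the non-coding RNA Gm41404. The third lay 16.5 kb from Gm37169, an unconfirmed transcript, with a mean of 145 CPM, and the next were nearest to Gpr37l1, an orphan receptor (127), Gm16344 within an intron of the microvillus myosin gene Myo7b (125), Gm37549 (124) and Mbnl2, a regulator of splicing (122). The last of the top 10 were nearest to Gramd2 (117), the non-coding RNA Bvht (117) and Hjurp, the chaperone of centromeric histone (116), the last one within the first intron of Trpm8.

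Per length, the order was different. The highest were a 106 bp element on the X chromosome 69.2 kb from the snoRNA gene Gm23325 (294 CPM per kb), elements within introns of Trak1, an adaptor of mitochondrial transport (198), and Zfand4 (195), one near the miRNA gene Gm25352 (185), and one in an intron of Epb4.1l4b nearest to Gm12530 (173). The Trak1 element (chr9:121415576-121416128, 553 bp) had 114, 109 and 113 CPM in aged libraries and 118, 94.5 and 113 CPM in young libraries. Its highest and lowest library were both young.

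The 1814 elements had 1471 nearest genes, of which 258 had 2 or more elements and 59 had 3 or more. With gaps of up to 10 kb bridged, 277 elements fell into 129 stretches of 2 or 3. Irf2bp2, a transcriptional corepressor that binds IRF2, had the most, with 7 elements between 20.3 and 172 kb upstream of its TSS. The snoRNA gene Gm26397 on the other side had 6, so that 13 elements stood in 289.7 kb of chromosome 8 (chr8:126614015-126903720). That interval holds 67 peaks, and the 13 elements carried 69.9% of their summed CPM. Summed over the 13 elements, the level was 788.6, 719.2 and 787.8 CPM in aged libraries and 823.2, 712.4 and 836.7 CPM in young libraries, or 765 ± 39.8 and 791 ± 68.2 (SD, n = 3 each). The groups overlapped, with replicate 2 lowest in each. Of the 61 peaks tested there, 0 passed the test of age described below by edgeR or DESeq2, against 1.13% of all tested peaks by edgeR. Before adjustment 2 were under its threshold, against 9.71%, and 1 passed with the replicate block described below, against 2.67%. With 61 peaks, a count of 0 is not particular to this locus.

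**Figure D1:**
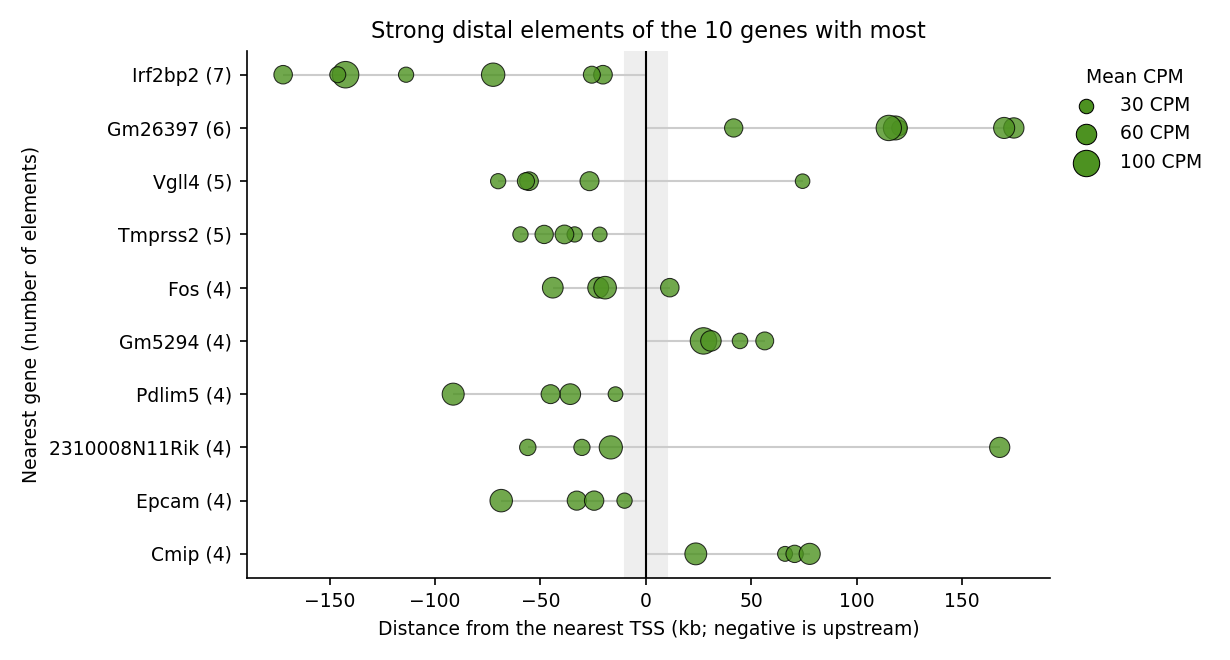
Distance in kb from the nearest annotated TSS (negative is upstream) of each strong distal element for the 10 nearest genes with the most elements, with point area proportional to mean CPM over 6 libraries. The grey band marks the 10 kb on either side of the TSS that the selection leaves out. The 7 elements of Irf2bp2 are all upstream and the 6 of Gm26397 all downstream.

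Vgll4, a cofactor of TEAD factors, had 5 elements, 4 of them in an intron of its own and 1 in an intron of Atg7. The serine protease gene Tmprss2 also had 5, which lay 21.9 to 59.5 kb upstream within 38.2 kb. Fos, which encodes a subunit of AP-1, had 4 elements at 49.2 to 73.4 mean CPM, and Epcam, the epithelial adhesion molecule, had 4 at 33.7 to 72.7. The actin-associated protein gene Pdlim5 and the signalling adaptor gene Cmip had 4 each within their introns, and Gm5294 and the lincRNA gene 2310008N11Rik completed the 10 genes with 4 each. One Pdlim5 element, 91.4 kb from the annotated TSS, holds a RefSeq start of Pdlim5. Summed over the 4 elements of Fos, the level was 256.2, 225.8 and 266.3 CPM in aged libraries and 246.5, 232.9 and 268.0 CPM in young libraries. Over the 4 elements of Epcam it was 215.3, 203.7 and 215.6 CPM in aged libraries and 219.7, 195.4 and 238.9 CPM in young libraries. In both genes the groups overlapped, and replicate 2 was the lowest of each age.

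The elements were then set against 22 lists of genes of the intestinal epithelium and of other cells, 429 of whose 450 genes were the nearest gene of a peak. Of the 82845 distal peaks, 2.19% are elements, and this is the share to hold each list against. The highest shares were those of epithelial junction and keratin genes, with 15 of 135 distal peaks (11.1%), and of AP-1 and immediate early genes, with 5 of 45 (11.1%). Among the junction elements were those nearest to Epcam (4), Itga6 and Krt18 (2 each), and Cdh1, Cldn3, Cldn4, Krt19 and Ocln (1 each), and the AP-1 elements were nearest to Fos (4) and Fosb (1). Transcription factors of epithelial identity came next, with 11 of 157 (7.01%), among them elements at Gata4 (3), which specifies the proximal small intestine, Pdx1, Cdx1, Gata6, Ehf, Maf, Onecut2 and Prdm1. Interferon and inflammation genes had 6 of 132 (4.55%), nearest to Irf2 (4), Nfkbiz and the chemokine gene Ccl25. Wnt and Notch pathway genes had 6 of 173, with 3 at the Notch effector Hes1, and growth factor genes had 8 of 236, with 4 at the TGF-beta receptor gene Tgfbr2. Intestinal stem cell genes had 6 of 280, a share of 2.14% beside the 2.19%, at Lrig1 (3), Smoc2 and Hopx. No element was nearest to a gene of the lists for Paneth cells (24 distal peaks), enteroendocrine cells (48), tuft cells (38), MHC genes (7), distal intestine and colon (21), immune cells (19), or endothelial and neural cells (45). The lists were drawn up with earlier results of these data known, and the shares carry no test.

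**Figure D2:**
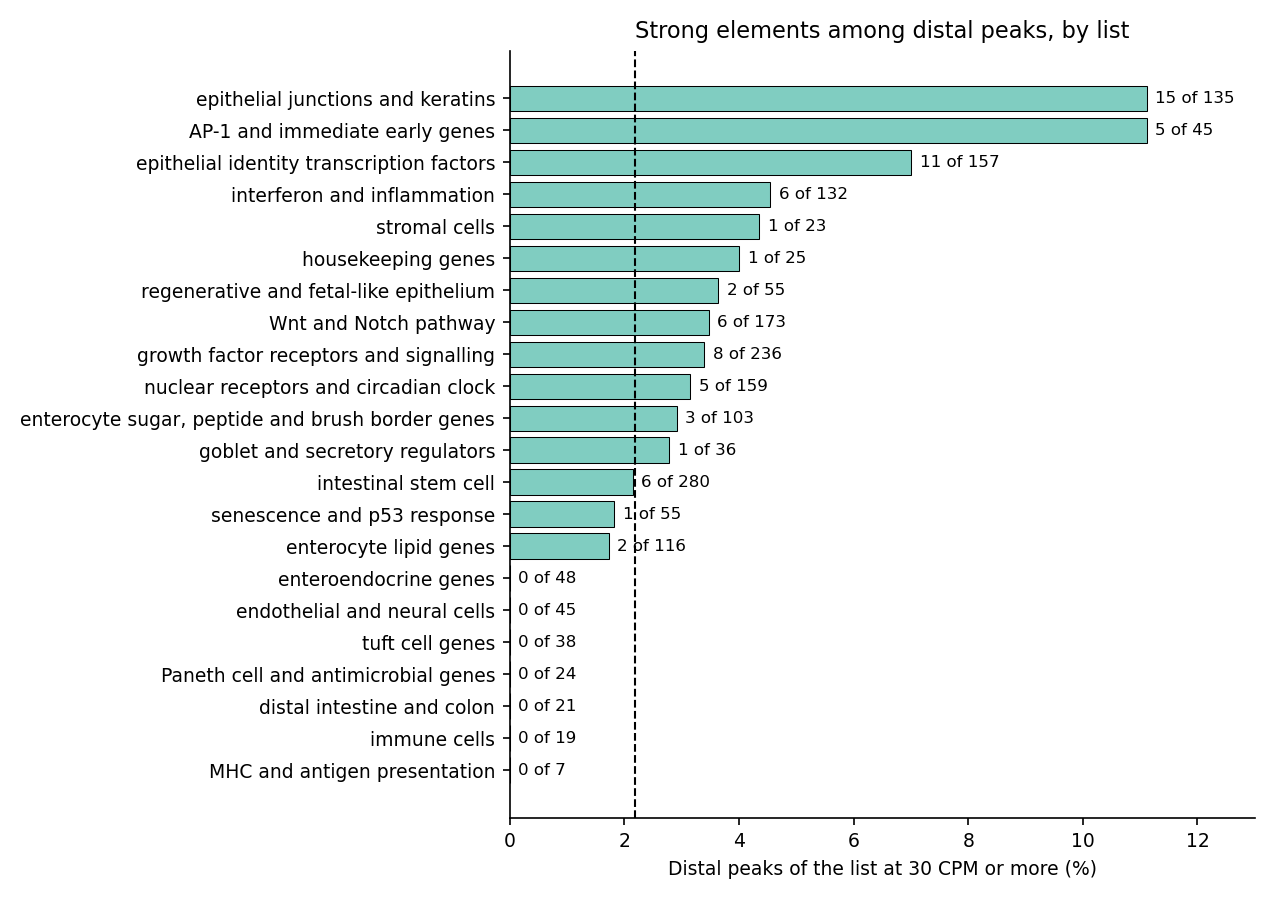
Share in percent of the distal peaks nearest to each list's genes that are strong distal elements, with the count beside each bar. The dashed line is the share over all distal peaks, 2.19%. Junction and keratin genes and AP-1 genes stand at 11.1%, and 7 lists have no element.

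At promoters, the marker genes of the labelled tissue were open. A peak within 1 kb of the TSS was found for 9 of 13 epithelial markers, with summed levels of 362 to 370 CPM in aged libraries and 343 to 377 CPM in young libraries, while Dclk1, Krt19, Muc2 and Vil1 had none. It was found for 3 of 15 immune markers, with 9.48 to 10.8 CPM in aged and 9.76 to 11.7 CPM in young libraries, and none for Ptprc, the pan-leukocyte marker. Stromal markers had 11 of 16, with 44 to 52.2 CPM in aged and 39.7 to 52.4 CPM in young libraries, and endothelial and neural markers 6 of 15, with 55.6 to 57.6 CPM in aged and 47.4 to 60.7 CPM in young libraries. An open promoter need not be active, and the marker sums overlapped between the ages in all 4 lists.

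Accessibility of the elements was compared between aged and young organoids by edgeR's quasi-likelihood test, fitted to all 132055 peaks with sufficient counts, with p-values adjusted by Benjamini-Hochberg over these and a threshold of 0.05. All 1814 elements were among the peaks tested. Of all tested peaks, 1.13% passed, 0.619% with more and 0.510% with less signal in aged libraries. Of the elements, 5 passed (0.276%), all 5 higher in aged libraries, and 0 were lower. This one-sided split held in some of the alternative fits described at the end and not in others. With RLE factors, no filter, a passage term, DESeq2 or thinned libraries, 3 to 6 elements were higher and 0 lower in aged libraries. Leaving out any 1 library other than young replicate 2 gave 3 to 5 higher and 0 lower. With offsets that follow abundance, 4 elements were higher and 4 lower in aged libraries, and with library totals alone 5 were higher and 2 lower. With the replicate block described below 16 were higher and 11 lower, and without young replicate 2 it was 12 higher and 34 lower. Of the other 6478 peaks at 30 CPM or more, 14 passed (0.216%), and of the other distal peaks 752 of 66516 tested (1.13%). Each library pools many cells, so fewer cells with an open region and a region less open in every cell cannot be told apart. Before adjustment, 82 elements (4.52%) had a p-value under the threshold, against 9.71% of all tested peaks and 8.54% of the other peaks at 30 CPM or more. The elements' median log2 fold change of aged over young was -0.02, beside -0.01 over all tested peaks and 0.04 over the other peaks at 30 CPM or more.

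Most of these differences could be bounded. A 95% interval of the fold change could be computed for 1793 elements (for the other 21 the estimate lay within 0.001 of 0 on the log2 scale). It lay within 1.5-fold in either direction for 1780 of them and within 2-fold for 1789. The share within 1.5-fold was 99.3%, beside 99.7% of the other peaks at 30 CPM or more and 41.6% of all tested peaks. Such narrow intervals are thus not particular to the elements. The aged libraries were all above the young ones at 69 elements (3.80%) and all below at 56 (3.09%), against 7.66% and 7.09% of all tested peaks. Of the other 6478 peaks at 30 CPM or more, they were all above at 14.6% and all below at 1.45%.

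**Figure D3:**
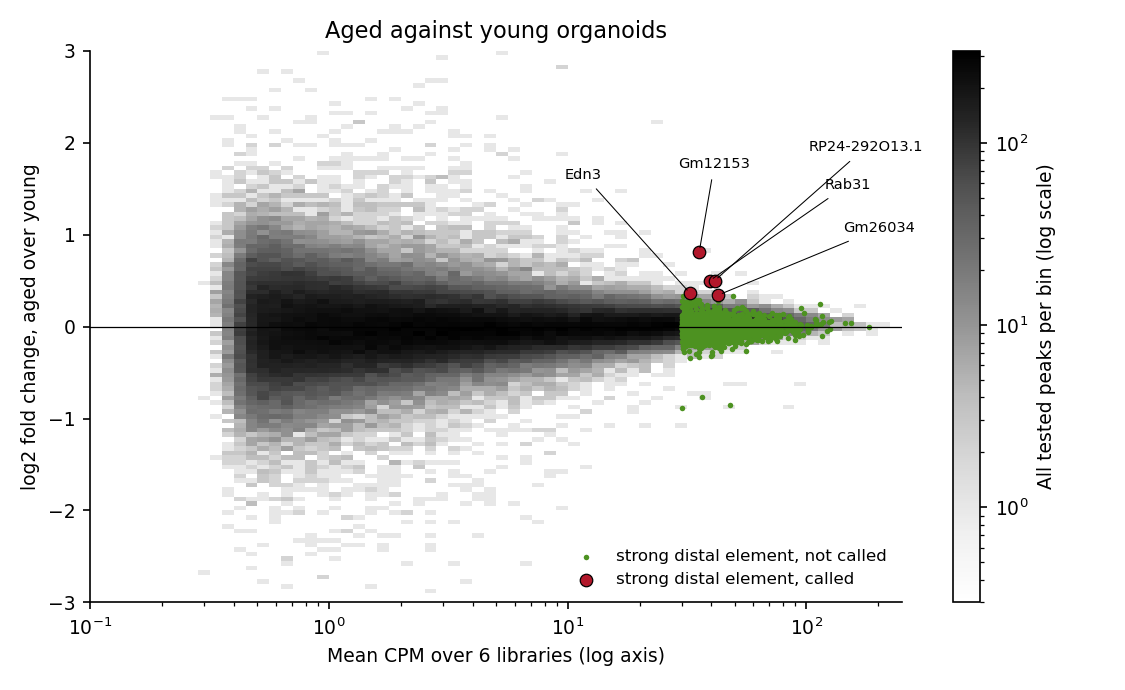
Mean CPM over 6 libraries (log axis) against the log2 fold change of aged over young, with all tested peaks in grey by their number per bin, strong distal elements in green and the 5 called elements in red with their nearest genes. Another 22 tested peaks lie beyond the vertical axis. The elements called lie between 0.34 and 0.81, and 1810 of the 1814 elements lie within 1.5-fold.

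The largest difference among the called elements was at a 640 bp region between genes (chr11:43929128-43929767), 29.6 kb from the lincRNA gene Gm12153 and 28210 bp from the RefSeq start of Adra1b, an alpha-1 adrenergic receptor. It had 43.8, 47.4 and 46.0 CPM in aged libraries and 25.7, 25 and 27.3 CPM in young libraries. All aged libraries stood above all young ones. The means were 45.7 ± 1.81 and 26.0 ± 1.15 CPM (SD, n = 3 each), and the log2 fold change was 0.81 ± 0.09 (SE; edgeR, adjusted p = 2.57e-07).

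An element in the first intron of Rab31, a small GTPase of vesicle transport (chr17:65723638-65724549, 48.7 kb from the TSS), had 48.4, 43.9 and 47.4 CPM in aged libraries and 31.4, 34.6 and 32.3 CPM in young libraries. The groups did not overlap, and the log2 fold change was 0.50 ± 0.09 (SE; edgeR, adjusted p = 6.16e-04). A region between genes 19.1 kb from the lincRNA gene RP24-292O13.1 (chr5:37874765-37875804) had 52.6, 45.7 and 47.3 CPM in aged libraries and 37.6, 33.3 and 33.0 CPM in young libraries. Here too the groups did not overlap, with a log2 fold change of 0.50 ± 0.09 (SE; edgeR, adjusted p = 8.03e-04). These first 3 elements passed in all 14 alternative fits described at the end.

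The other 2 stood near the threshold. An element 21.2 kb upstream of Edn3, which encodes the peptide endothelin 3 (chr2:174748364-174748991, and 11942 bp from the nearest RefSeq start of Edn3), had 38.0, 34.3 and 37.9 CPM in aged libraries and 30.6, 25.9 and 29.9 CPM in young libraries. The aged libraries were all higher, with a log2 fold change of 0.36 ± 0.09 (SE; edgeR, adjusted p = 0.0424). A region 24.9 kb from the snRNA gene Gm26034 and 7711 bp from the RefSeq start of Mfsd4a, a membrane transporter gene (chr1:132075464-132076083), had 49.3, 48.1 and 46.7 CPM in aged libraries and 42.5, 39.2 and 32.9 CPM in young libraries. It was higher in each aged library, with a log2 fold change of 0.34 ± 0.09 (SE; edgeR, adjusted p = 0.0492). The Edn3 element missed the threshold in 6 of 14 alternative fits, with an adjusted p of up to 0.297, and the Gm26034 element in 8, up to 0.354. For the Edn3 element these included leaving out any 1 aged library (0.247, 0.0579 and 0.297 for replicates 1 to 3) or young replicate 2 (0.119), and for the Gm26034 element any 1 aged library (0.249, 0.155 and 0.181) or young replicate 3 (0.354).

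**Figure D4:**
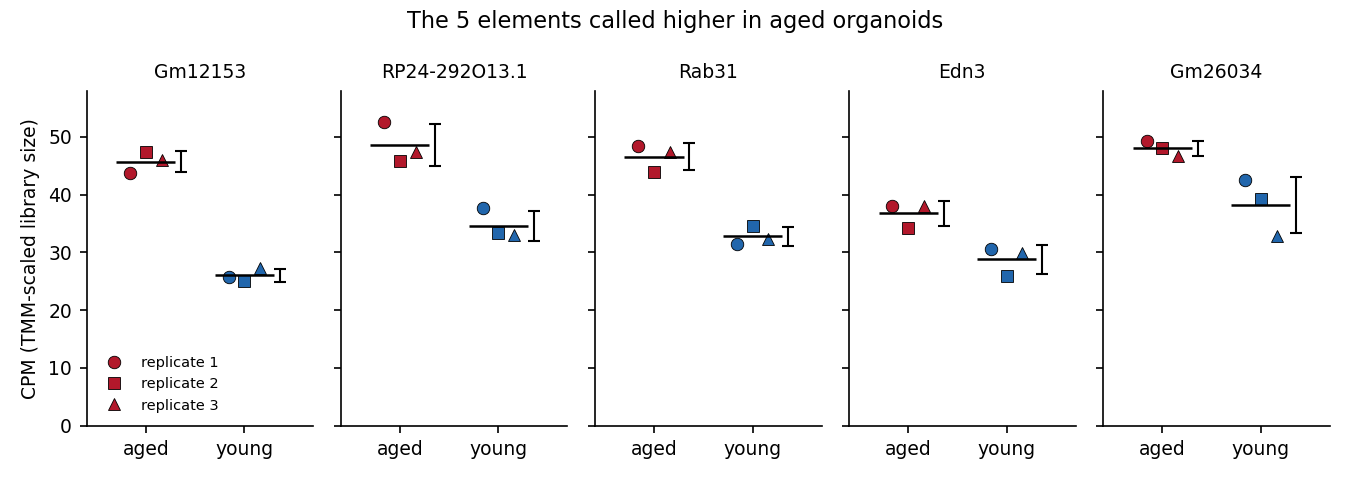
CPM with TMM-scaled library sizes of the 5 called elements, named by their nearest gene, in aged (left, red) and young (right, blue) libraries. Symbols mark the replicate number, lines the mean and bars the SD of 3 libraries. At each element every aged library is above every young one.

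Of the elements near genes of the 22 lists, 73 in all, 0 passed the test of age by edgeR and 0 by DESeq2. Before adjustment 4 had a p-value under the threshold, and 1 passed with the replicate block described below. Of all tested peaks, 1.13% passed by edgeR, 9.71% had an unadjusted p under the threshold and 2.67% passed with the block. At such shares 73 elements would hold few calls or none, so the 0 is not particular to the lists. The log2 fold changes of the 73 elements had a median of -0.01. The lowest was that of an element in an intron of Met, the hepatocyte growth factor receptor gene, at -0.22 (edgeR, adjusted p = 0.388). The 15 elements of junction and keratin genes ran from -0.11 to 0.29, the highest of the 73. The 11 elements of identity transcription factor genes ran from -0.11 to 0.17, the 5 of AP-1 genes from -0.09 to 0.06 and the 6 of interferon and inflammation genes from -0.17 to 0.02. A Cldn3 element, near a claudin gene of tight junctions (chr5:134966038-134967882), had 110, 96.3 and 112 CPM in aged libraries and 102, 96.9 and 118 CPM in young libraries, which overlapped, with a 95% interval of the log2 fold change of -0.16 to 0.17. The strongest Hes1 element had 101, 91.6 and 95.5 CPM in aged libraries and 92.5, 84.2 and 106 CPM in young libraries, with an interval of -0.14 to 0.19. Among the top 10 by CPM the log2 fold changes ran from -0.11 at Hjurp to 0.11 at Bvht, and 0 passed by edgeR or DESeq2, with 0 under the threshold before adjustment. Few as they are, these 10 elements cannot be set apart from the shares over all tested peaks. Of the 112 elements with a RefSeq start inside, 0 passed by edgeR and 0 by DESeq2, 11 had an unadjusted p under the threshold (9.82%, beside 9.71% of all tested peaks) and 3 passed with the replicate block described below (2.68%). The 1616 elements on the same chromosomes without one held all 5 called elements.

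Same-numbered aged and young libraries share a passage and a culture code, and their deviations from the group means correlated at 0.05, 0.40 and 0.54 over the elements for replicates 1 to 3, so a fit with the replicate number as a block was set beside the first. It called 27 elements (16 higher and 11 lower in aged libraries), against 2.67% of all tested peaks. The 27 are 1.49% of the elements and include all 5 named above. The new calls were mostly small: beside 3 narrow peaks described next, no log2 fold change among them exceeded 0.35 in size. Among them were elements nearest to Gtdc1, holding a RefSeq start of that gene (log2 fold change without the block 0.33), Idh2, mitochondrial isocitrate dehydrogenase, likewise (0.28), S100a10, a calcium-binding protein (-0.28), Scin, an actin-severing protein (-0.30), and Rreb1, a zinc-finger factor (-0.34). These names were chosen after their values were seen. With young replicate 2 left out and no block, 46 of the 1814 elements passed, 12 higher and 34 lower in aged libraries, 4 of the 5 among them. In that fit 1902 of 135424 tested peaks passed (1.40%), so the elements' share was above that of all tested peaks. Before adjustment, 455 elements had a p-value under the threshold there, against 82 with all 6 libraries.

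Among the narrowest elements, 3 varied most between the libraries. An element of 258 bp near the miRNA gene Gm25352 (chr3:5860341-5860598) had 34.7, 26.4 and 41.1 CPM in aged libraries and 74.2, 38.1 and 75.5 CPM in young libraries. Young replicates 1 and 3 were about level with each other and far above the rest, and young replicate 2 lay within the aged range. An element of 279 bp in an intron of Gphn, which encodes gephyrin (chr12:78350869-78351147), had 25.2, 21.3 and 33.9 CPM in aged libraries and 56.4, 27.0 and 57.1 CPM in young libraries. An element of 231 bp 12.2 kb from Myl12b, a myosin light chain gene (chr17:70963666-70963896), had 20.6, 17.7 and 24.3 CPM in aged libraries and 51.5, 23.1 and 45.1 CPM in young libraries. In all 3, young replicates 1 and 3 were highest and aged replicate 2 lowest. Their log2 fold changes were -0.85, -0.77 and -0.88, the lowest of all elements, with adjusted p of 0.581, 0.661 and 0.56 by edgeR without the block and 2.35e-15, 3.9e-08 and 2.41e-05 with it. Within each same-numbered pair the aged library was the lower one. Another 2 elements under 300 bp, nearest to Bdh1 (285 bp) and Gm23325 (106 bp), had log2 fold changes of 0.03 and -0.20 and did not show this order. The 5 were singled out after their values were seen.

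The replicate number was tested as well, after the values by library had been seen. In a test of it beside age (edgeR, 2 degrees of freedom), 94 elements passed (5.18%), against 1.29% of all tested peaks, 1.42% of the other peaks at 30 CPM or more and 1.34% of other distal peaks. Replicate 2, at passage 3, had the lowest mean at 77 of the 94, and at 69 both replicate 2 libraries were below the other 4. Over all 1814 elements, both replicate 2 libraries were the lowest at 735 (40.5%) and the highest at 20, against lowest at 9.24% of all tested peaks and 21.4% of the other peaks at 30 CPM or more. The median log2 ratio of replicate 2 over replicate 1 was -0.14 over the elements and 0.01 over all tested peaks. Replicate number and passage, and the culture code as the titles give it, are 1 split of these libraries and cannot be told apart.

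**Figure D5:**
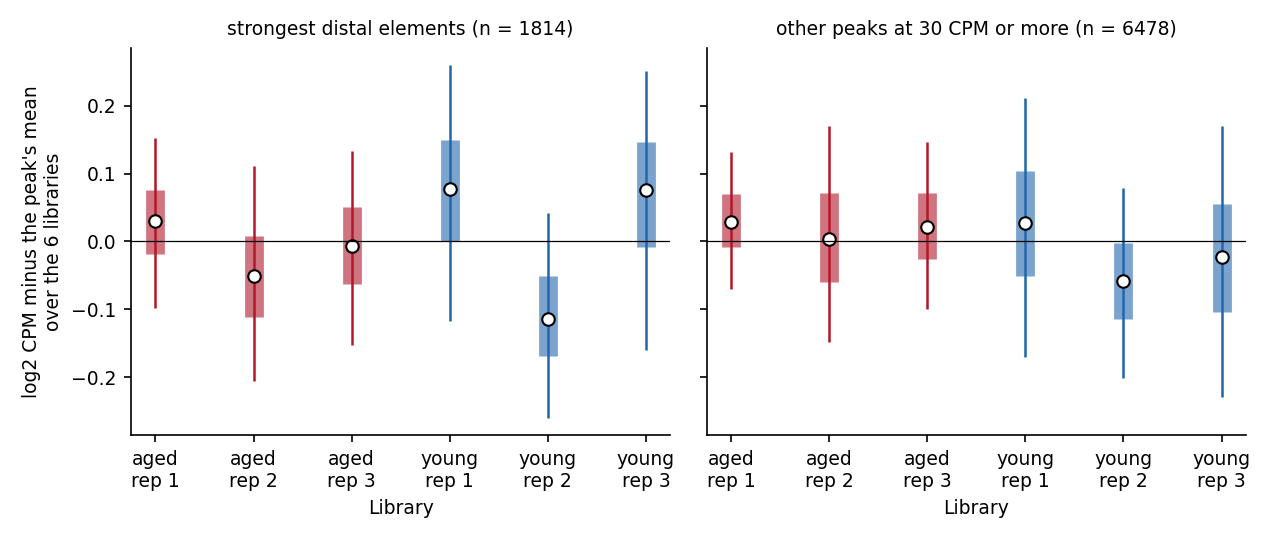
Log2 CPM of each peak minus its mean over the 6 libraries, by library (aged red, young blue), for the 1814 strong distal elements (left) and the 6478 other peaks at 30 CPM or more (right). Points are medians, thick bars the middle 50% and lines the 5th to 95th percentile. At the elements the medians are -0.05 in aged replicate 2 and -0.11 in young replicate 2, the lowest of each age.

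Values per library are given for 5 single elements. Those near Ripk4, Eepd1 and Coq2 were taken from the elements with the smallest p in the replicate number test, after the values were seen. Those at Slc15a1 and Lrig1 were named as elements of the gene lists. An element 32.8 kb from Ripk4, a kinase of epithelial differentiation (chr16:97730382-97730943), had 32.1, 22.0 and 35.4 CPM in aged libraries and 33.5, 23.1 and 41.2 CPM in young libraries. Both replicate 2 libraries were the lowest (edgeR replicate number test, adjusted p = 1.85e-07), while the log2 fold change with age was -0.11. One 21.8 kb from Eepd1 (chr9:25460710-25461399) had 36.3, 24.0 and 30.2 CPM in aged libraries and 35.4, 23.1 and 33.6 CPM in young libraries, with the same 2 libraries lowest (adjusted p = 1.98e-04, same test). One 31.8 kb from Coq2, an enzyme of coenzyme Q synthesis (chr5:100632115-100633110), had 61.0, 44.4 and 57.8 CPM in aged libraries and 52.1, 39.0 and 58.9 CPM in young libraries (adjusted p = 3.2e-04, same test). An element in an intron of the peptide transporter gene Slc15a1 (chr14:121471480-121472055) had 49.3, 37 and 45 CPM in aged libraries and 45.1, 33.4 and 43.7 CPM in young libraries, again with replicate 2 lowest at both ages (adjusted p = 0.00956, same test). At Lrig1, a marker of intestinal stem cells, the strongest element had 106, 93.3 and 98.1 CPM in aged libraries and 121, 86.9 and 106 CPM in young libraries (adjusted p = 0.0486, same test). In all 5 the ages overlapped. The second strongest Lrig1 element did not pass (adjusted p = 0.590, edgeR replicate number test). Of the 73 elements near genes of the lists, 5 passed this test, beside 94 of the 1814 elements and 1.29% of all tested peaks. The narrow Gm25352, Gphn and Myl12b elements were also among the 94, with adjusted p of 1.91e-09, 3.03e-06 and 0.00877 by the same test.

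The count of 94 depended on single libraries. It was 8 without young replicate 3, 31 without young replicate 2 (where the test of age alone called 46), 46 without aged replicate 3 and 182 without aged replicate 2, and it was 61 with offsets that follow abundance. With passage fitted as a number beside age, 0 elements passed by edgeR and 91 (5.02%) had an unadjusted p under the threshold, against 0.00303% and 5.27% of all tested peaks, though 4 passed without young replicate 2. DESeq2 was not run for this trend.

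The share of all peak counts that fell in the elements was 8.19%, 7.87% and 8.03% in aged libraries and 8.44%, 7.69% and 8.45% in young libraries. The means were 8.03 ± 0.159% and 8.19 ± 0.436% (SD, n = 3 each), and the difference was within the spread (exact permutation test, two-sided, p = 0.6, where 0.1 is the smallest p that 3 against 3 libraries allow). Within same-numbered pairs the aged share differed from the young one by -0.256, 0.181 and -0.414 percentage points (exact sign-flip test, p = 0.5, smallest possible 0.25). Other distal peaks held 26.3 to 26.4% of counts in the aged libraries and 26.7%, 26.8% and 27.4% in the young libraries. Strong promoter peaks held 22.3 to 22.4% in aged and 21.5 to 22.2% in young libraries. In these 2 classes the ages did not overlap (exact permutation p = 0.1 each, 0.15 adjusted over the 3 classes by Benjamini-Hochberg), and the elements' p adjusted in the same way was 0.6.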

How the data were processed

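The deposited table holds raw counts per consensus peak and library, counted with featureCounts 2.0.1, with BWA 0.7.17-r1188 and MACS2 2.2.7.1 also named, on GRCm38, per the submitters' processing notes. Per the labels' protocols the libraries had 20 PCR cycles. How duplicates and the Tn5 offset were handled is not stated there. PCR reads without molecular identifiers are not independent molecules, so intervals cover the spread between libraries and counting error only. Class, distance and nearest gene come from the deposited peak annotation.

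Counts were joined by peak identifier. Peaks were filtered with filterByExpr (minimum count 10), which left out 24678, and fitted with edgeR 4.0.16 (TMM factors 0.985 to 1.03, robust quasi-likelihood F test, age alone) in R 4.3.3, tested on simulated data. Alternatives were other scaling (RLE factors, library totals, loess offsets), no filter, thinning to the smallest library, DESeq2 1.42.0, a replicate block, a passage term, and leaving out each library. RefSeq windows of 250 bases before each start were searched for motifs on both strands.

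The elements, gene lists and named regions were chosen with earlier results of these data known. Named were the 10 elements with the highest CPM, those called with age, the 2 strongest of each list, the 5 densest, the 10 genes with most elements and those beside the threshold; some nearest genes are not reported here. Elements with the smallest p in the replicate number test were also named, after their values were seen. The replicate number test, its alternatives, the block with loess offsets, and the split by RefSeq start were added after the data were seen.

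The pairing of libraries comes from the titles, where same-numbered libraries share a culture code and passage (the descriptions give the same passages and 1 code for all). The deviations of same-numbered libraries from their group means correlated at 0.07, 0.13 and 0.14 over all tested peaks and 0.05, 0.40 and 0.54 over the elements for replicates 1 to 3.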

Additional observations from a re-analysis of the deposited data

How the results depend on the processing

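The 5 elements called with age became 8 with loess offsets (4 higher and 4 lower in aged libraries), 3 by DESeq2, 27 with the replicate block, 30 with the block and loess offsets together (12 higher and 18 lower), and 3 to 46 when 1 library was left out, the highest without young replicate 2. Over all tested peaks, 1491 calls became 3523 with the replicate block, 879 by DESeq2, 695 after thinning to the smallest library and 830 to 1902 with 1 library left out. The cause of these shifts was not tested, other than that thinning leaves fewer counts.

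Other member rules gave 3841 elements at 20 CPM or more, with 23 called, 457 at 50 CPM or more, with 0 called by edgeR or DESeq2, 9 with an unadjusted p under 0.05 and 2 called with the replicate block, and 959 at 25 kb or more, with 2 called. Of all tested peaks, 1.13% were called, 9.71% had an unadjusted p under 0.05 and 2.67% were called with the block. Ranking by CPM per kb shared 1026 elements. The replicate number test gave 61 elements with loess offsets and 8 to 182 with 1 library left out, and the passage trend 0 to 4.

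The elements' median log2 fold change lay between -0.09 (without young replicate 2) and 0.03 (without young replicate 3), and was above 0 also without aged replicate 2 or young replicate 1. The elements' share of counts was lower in aged libraries in each of the 11 alternatives run. These reuse the same libraries, and the paired one repeats the same mean difference, so the shared sign is not further evidence of a difference. In the main setting the exact permutation p was 0.6, and the pair of replicate 2 went the other way (0.181 percentage points). The 5 called elements kept their direction in all 14 alternative fits. This follows largely from their selection, since at each of them every aged library stood above every young one. The balance of calls, 5 higher and 0 lower, did not keep its direction in every fit. It stayed at 0 lower with RLE factors, no filter, a passage term, DESeq2, thinning, or any library but young replicate 2 left out. Higher calls still outnumbered lower ones with library totals (5 and 2) and the replicate block (16 and 11). They were 4 and 4 with loess offsets, 12 and 18 with the block and loess offsets, and 12 and 34 without young replicate 2.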
